A study of Mus musculus with 4 samples.

Results

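The probes described here were already detected in Emerald-negative mouse embryonic stem cells and gave a higher signal in Emerald-positive cells. They were chosen on measured values: the log2 ratio of sample to reference was at least 1 higher in Emerald-positive than in Emerald-negative cells on both days, and the sample signal lay above the negative-control level on all 4 arrays. The rule kept 196 of 42006 probes on the array, and 32844 probes passed the detection part of it. A further 59 probes met the difference on both days but were not detected on all 4 arrays (25 were detected on 3 arrays and 34 on 2). Because the difference between Emerald-positive and Emerald-negative cells chose these probes, it is given as a description and supports nothing by itself.

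The cells were 1 clone, ES[129.3:Zscan4cEmgfp(7)], of male 129/Sv embryonic stem cells, in which the Zscan4c promoter drives Emerald, a green fluorescent protein, and blasticidin had selected the transfected colonies. Every sample carried this reporter and this selection, the labels give sorted fluorescence as the difference between the groups, and cells without the reporter are not analysed here. There were 2 samples of Emerald-positive and 2 of Emerald-negative cells, and same-numbered samples carry the same day in their descriptions. Each sample's RNA (Cy3) shared an array with RNA pooled from 11 mouse cell lines (Cy5), in the same dye orientation on every array, and each array was on a slide of its own. Nothing in the labels says whether each day had a culture of its own, so the p-values rest on a spread that may be technical.

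Zscan4 genes encode nuclear proteins with zinc fingers and a SCAN domain. They are expressed at the 2-cell stage of the mouse embryo, and in cultured embryonic stem cells they switch on in brief bursts in a small share of cells at a time. Cells in this state are known to express other genes and repeated sequences of the early embryo too, and the state has been tied to telomere maintenance. No table used here pairs probes with genes, so Zscan4 itself and markers of stem cells, feeder cells or other cell types are not analysed here, and each probe is named here by its array identifier and sequence.

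The 12 probes that lead the ranking by the smaller of both days' differences are shown because that difference was largest for them. All are 60 bases long, written 5′ to 3′ as deposited, and capitals mark a 10-base word, AGCAGCAGCA, described further on.
Z00034921-1: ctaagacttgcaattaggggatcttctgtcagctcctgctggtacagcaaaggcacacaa
Z00060619-1: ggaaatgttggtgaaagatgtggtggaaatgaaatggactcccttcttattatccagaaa
Z00034256-1: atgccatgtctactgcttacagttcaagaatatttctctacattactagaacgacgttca
Z00059385-1: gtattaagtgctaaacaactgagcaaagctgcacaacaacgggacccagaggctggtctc
Z00058166-1: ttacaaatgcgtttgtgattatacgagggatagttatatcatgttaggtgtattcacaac
Z00052514-1: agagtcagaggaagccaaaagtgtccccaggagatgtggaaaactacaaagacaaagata
Z00060442-1: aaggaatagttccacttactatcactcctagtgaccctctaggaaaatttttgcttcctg
Z00059520-1: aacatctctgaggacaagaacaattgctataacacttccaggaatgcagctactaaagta
Z00031385-1: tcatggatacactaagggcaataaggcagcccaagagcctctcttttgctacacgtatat
Z00059654-1: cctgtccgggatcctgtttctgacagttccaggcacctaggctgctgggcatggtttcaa
Z00030830-1: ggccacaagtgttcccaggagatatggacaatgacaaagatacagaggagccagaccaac
Z00070806-1: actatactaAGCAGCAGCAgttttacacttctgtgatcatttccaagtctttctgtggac

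The word AGCAGCAGCA is shown in 4 more holders because it recurs in probes that the sequence comparison described further on did not link. Capitals mark every copy, overlapping copies included.
Z00033463-1: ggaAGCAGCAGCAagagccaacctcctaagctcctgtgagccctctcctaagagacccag
Z00025315-1: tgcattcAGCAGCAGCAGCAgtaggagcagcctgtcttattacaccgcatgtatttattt
Z00022546-1: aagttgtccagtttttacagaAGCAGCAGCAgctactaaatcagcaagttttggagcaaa
Z00056563-1: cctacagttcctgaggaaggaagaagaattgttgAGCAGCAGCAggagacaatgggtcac

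Several probes of the set resemble each other. In each group below, capitals mark the longest run of letters that all linked probes of the group share. The first set gives 4 of 11 probes of the largest group, whose letters differ at few positions.
Z00031084-1: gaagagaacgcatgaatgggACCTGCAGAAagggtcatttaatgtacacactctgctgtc
Z00073033-1: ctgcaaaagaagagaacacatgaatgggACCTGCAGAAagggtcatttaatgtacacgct
Z00073035-1: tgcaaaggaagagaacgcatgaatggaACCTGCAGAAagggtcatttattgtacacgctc
Z00073041-1: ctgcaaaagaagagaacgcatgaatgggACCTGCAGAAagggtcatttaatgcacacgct
The next set gives all probes of a group of 4.
Z00026479-1: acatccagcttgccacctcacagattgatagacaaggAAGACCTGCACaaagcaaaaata
Z00070845-1: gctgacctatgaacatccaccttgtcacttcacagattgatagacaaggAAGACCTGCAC
Z00058056-1: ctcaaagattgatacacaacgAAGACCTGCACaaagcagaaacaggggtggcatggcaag
Z00058452-1: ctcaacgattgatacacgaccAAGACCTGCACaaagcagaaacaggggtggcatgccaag
A group of 3 had its larger differences for replicate 1.
Z00063589-1: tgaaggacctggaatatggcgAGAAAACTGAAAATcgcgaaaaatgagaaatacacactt
Z00063653-1: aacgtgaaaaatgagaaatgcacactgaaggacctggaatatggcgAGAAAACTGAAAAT
Z00070114-1: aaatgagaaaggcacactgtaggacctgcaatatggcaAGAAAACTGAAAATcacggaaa
Another group of 3 stands for the many probes just above the threshold.
Z00060883-1: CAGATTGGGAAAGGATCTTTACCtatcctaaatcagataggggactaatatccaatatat
Z00060918-1: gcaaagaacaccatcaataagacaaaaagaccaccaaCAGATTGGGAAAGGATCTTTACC
Z00060919-1: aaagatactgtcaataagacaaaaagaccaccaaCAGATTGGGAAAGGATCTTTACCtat
The probes of 2 pairs with large differences follow.
Z00010132-1: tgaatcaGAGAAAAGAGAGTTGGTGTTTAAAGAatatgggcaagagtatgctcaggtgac
Z00035038-1: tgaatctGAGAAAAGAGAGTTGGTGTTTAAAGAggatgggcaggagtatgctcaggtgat
Z00060365-1: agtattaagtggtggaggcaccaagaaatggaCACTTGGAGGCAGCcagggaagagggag
Z00067545-1: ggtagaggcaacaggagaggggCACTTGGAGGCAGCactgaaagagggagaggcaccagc

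The range of differences was wide. For replicate 1 the log2 difference of the processed ratio had a median of 1.40 over the 196 probes and ran from 1.00 to 5.32. For replicate 2 its median was 1.78 and it reached 6.21. Over all 42006 probes the medians were -0.0041 and -0.015. On both days 50 probes were at least 4-fold higher, 30 at least 8-fold, 16 at least 16-fold and 2 at least 32-fold. A 2-fold rise on both days was met by 255 probes of the array, 0.607 percent of those measured.

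Probe Z00034921-1 led the ranking. Its net Cy3 signal, the mean spot signal less the local background, was 18283 and 20343 on the Emerald-positive arrays of replicates 1 and 2, and 117 and 73.4 on the Emerald-negative arrays. Its processed log2 ratio to the pool was 5.19 and 5.55 after the sort for Emerald and -0.13 and -0.43 without Emerald, a difference of 5.32 and 5.97. The Emerald-negative arrays were at or slightly under the level of the pool.

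Probe Z00060619-1 had a net Cy3 signal of 4901 and 3007 in Emerald-positive and of 94.6 and 59.6 in Emerald-negative cells, with ratio differences of 5.23 and 5.17. Its lowest value stood only 1.02 times above that array's negative-control level, so it sits close to the detection limit of the rule. For Z00034256-1 the net signal was 23236 and 21278 against 238 and 183, and the ratio differed by 4.97 and 5.37. Z00059385-1 gave 5578 and 6796 against 71.6 and 60.7, with differences of 5.06 and 4.97. These 4 probes were alike in that Emerald-negative ratios stayed between -0.43 and 0.39 on the log2 scale, near the pool, on both days.

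Z00058166-1 had the largest single-day difference. Its net Cy3 signal was 43925 and 30566 against 351 and 157, and the ratio differed by 4.95 for replicate 1 and 6.21 for replicate 2. The Emerald-negative ratio moved more between days (0.99 and -0.04) than the Emerald-positive ratio (5.93 and 6.17). Z00052514-1 gave 9073 and 8484 against 109 and 79.7, with ratio differences of 4.91 and 5.21.

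Z00060442-1 had a net Cy3 signal of 11362 and 8266 against 202 and 110 and ratio differences of 4.85 and 5.60. Z00059520-1 gave 12079 and 9456 against 82.2 and 88.6, with differences of 4.82 and 5.11. Z00031385-1 was dimmer in Emerald-positive cells, at 2307 and 1802 against 97.7 and 72.3, with differences of 4.26 and 4.64. In Emerald-negative cells Z00060442-1 was close to the array medians of 217 and 136, and the other 2 were below them.

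Z00059654-1 gave 8678 and 8363 against 230 and 195, with ratio differences of 4.22 and 4.58. Z00030830-1 gave 3715 and 3677 against 124 and 83.5, with differences of 4.21 and 4.54. Z00070806-1, a holder of the word, gave 5713 and 4514 against 174 and 80.7, with differences of 4.21 and 4.69. The Emerald-negative ratio of Z00070806-1 was -0.43 and -0.85, under the pool on both days, while the other 2 stayed between -0.09 and 0.12.

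At the other end, the probes just inside the rule showed that its edge cuts through a continuum. Differences on the replicate 1 and 2 days were 1.00 and 1.63 for Z00038178-1, 1.04 and 1.00 for Z00000892-1, 1.00 and 1.10 for Z00060959-1, 1.01 and 1.23 for Z00060883-1, and 1.13 and 1.01 for Z00072872-1. Just outside it lay Z00025925-1 (0.9992 and 1.06), Z00050852-1 (0.9944 and 2.25), Z00060804-1 (1.01 and 0.9941), Z00031472-1 (0.9941 and 1.33) and Z00060823-1 (0.9918 and 1.31). On the detection side, Z00070691-1 had the smallest margin among the probes kept, 1.002 times the negative-control level on its weakest array, and Z00056740-1 the smallest shortfall among those left out, at 0.9895 times. For 49 of the 196 probes, net Cy3 on both Emerald-negative arrays was under 2 times the negative-control level. The same share over all detected probes was not counted.

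The call of each probe by limma, a linear model fitted over all probes with moderated variances, is given only as a description, because the rule used the same contrast. With background-corrected, loess-normalised ratios, 69 of the 196 probes were called higher in Emerald-positive cells at a Benjamini-Hochberg adjusted p under 0.05, where 0.219 percent of all probes were called. With the replicate number as a block, which the shared day justifies, 164 were called, against 0.736 percent of all probes, and those 164 held each of the 69. The median normalised difference of the 196 probes was 1.44, and 1.41 to 1.54 when 1 array was left out. For Z00034921-1 the normalised difference was 5.49 ± 0.15 (SE, n = 2 per group).

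Sample signal and reference signal did not always move separately. Net Cy3 was higher in Emerald-positive cells on both days for 195 of 196 probes, and at least 2-fold higher on both days for 176, where 0.764 percent of detected probes were. Net Cy5, which measures the same reference pool on every array, was at least 2-fold higher beside Emerald-positive RNA on both days for 20 of the 196, where 0.0639 percent of detected probes were, and these 20 were all but 1 of the 21 detected probes on the array that met that. Those counts were chosen after the values were seen. Of the 12 leading probes, Z00034921-1, Z00034256-1, Z00059385-1, Z00058166-1, Z00052514-1, Z00059520-1 and Z00059654-1 were among these 20, and the rest were not. For Z00034921-1, net Cy5 was 1144 and 1043 beside Emerald-positive and 262 and 167 beside Emerald-negative RNA. The part of the reference channel in the ratio of these 20 probes was not tested.

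The clearest case was Z00060365-1. Net Cy3 was 30745 and 26510 on the Emerald-positive and 156 and 117 on the Emerald-negative arrays. Net Cy5 was 5846 and 4729 against 164 and 106. Both channels rose with the sort, and the processed log2 ratio therefore differed by only 2.48 and 2.76. Z00073053-1 showed the same on a smaller scale, with Cy3 of 15275 and 14448 against 117 and 95.5, and Cy5 of 2623 and 1983 against 215 and 178.

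The opposite pattern was seen in 2 probes, in which Cy5 was at least 1.5-fold lower on both days, where 0.0944 percent of detected probes were. For Z00032636-1 net Cy3 was 83.2 and 62.8 in Emerald-positive and 106 and 78.0 in Emerald-negative cells, so the sample signal was the lower one on both days. Its Cy5 was 54.4 and 37.1 against 261 and 219, and only through this did the ratio differ by 1.27 and 1.67. Z00073540-1 had a Cy3 of 451 and 209 against 386 and 147 and a Cy5 of 1125 and 893 against 2318 and 1396. Z00032636-1 is the single exception to the rise in net Cy3.

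The mean over both groups, which the difference does not fix, placed most of these probes above the reference pool. By limma, 150 of 196 lay above the pool and 17 below it at an adjusted p under 0.05, and 29 passed in neither direction. Over all probes 25.5 percent lay above and 23.8 percent below, and over probes detected on all 4 arrays 30 percent and 24.7 percent. The median normalised level was 1.14 (log2) over the 196 probes, 0.00063 over the detected probes and -0.0092 over all. The rule still bears on this count, because a probe must be raised in 2 of the 4 samples that enter the mean. The dyes were never swapped, so a dye effect of a probe cannot be told apart from its level against the pool. Loess normalisation also centres the ratios of each array, so a level is relative to that centre. These p-values therefore do not establish how much RNA there was relative to the pool. The same holds for every level against the pool given further on.

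In the processed ratios, 90 probes lay above the pool on all 4 arrays, where 36.1 percent of detected probes did, and 10 lay below it on all 4, where 35.7 percent did. Between these were 62 probes above the pool on both Emerald-positive arrays and below it on both Emerald-negative arrays, where 1.73 percent of detected probes were. The rule favours this pattern, so nothing is read from that count. The Emerald-negative ratio had medians of 0.12 and 0.081 for replicates 1 and 2, and the Emerald-positive ratio of 2.08 and 2.32.

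The 6 probes with the highest mean processed ratio follow, Z00070970-1 first. Its ratio was 6.03 and 6.40 in Emerald-positive and 4.95 and 4.67 in Emerald-negative cells, and the normalised mean of both groups was 4.29 ± 0.07 (SE, 4 arrays), with a limma adjusted p of 2.52e-05. Its Cy5 signal was 56.2 and 31.5 beside Emerald-positive and 23.96 and 19.3 beside Emerald-negative RNA, where the median net Cy5 of the arrays was 255 to 501. With so little pool signal the size of the ratio is uncertain, and the mean of the processed ratios was 5.51 against the normalised 4.29. Z00034851-1 had ratios of 5.46 and 5.37 against 2.12 and 2.36, and Z00024913-1 of 4.32 and 4.33 against 2.89 and 3.17.

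Z00030929-1 followed with 4.29 and 4.44 against 2.98 and 2.53. Z00009959-1 had 3.92 and 4.62 against 2.39 and 2.88. Z00065707-1 had 3.97 and 4.14 against 2.81 and 2.86. For all 6 the Emerald-negative arrays alone were more than 4-fold above the pool in the processed ratio. In the normalised values the Emerald-negative mean of Z00034851-1 was 1.998, just under that. Net Cy5 was also low for Z00009959-1 (53.3 to 106), Z00030929-1 (78.1 to 129) and Z00034851-1 (161 to 285), so the size of their ratios is uncertain too.

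Z00051485-1 stood lowest. Its ratio was -3.64 and -3.36 in Emerald-positive and -4.89 and -4.97 in Emerald-negative cells, with a normalised mean of -3.92 ± 0.06 (SE, 4 arrays) and a limma adjusted p of 2.46e-05. Net Cy3 was 221 and 188 against 82.9 and 63.5, while Cy5 ran between 4756 and 6605. This probe was higher in Emerald-positive cells and yet stayed far under the pool in both groups.

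Z00022677-1 had ratios of -2.36 and -2.56 against -3.73 and -3.84. Z00070299-1 had -1.84 and -1.81 against -3.60 and -4.05, but its Cy5 spot was saturated on all 4 arrays, so these ratios are upper bounds. Z00004269-1 had -1.47 and -1.39 against -3.52 and -3.27, and Z00070167-1 had -1.22 and -1.18 against -2.70 and -2.47. Z00026285-1 closed this end with -0.96 and -1.04 against -2.36 and -2.90. In each of the 6 every array lay under the pool.

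Signal in Emerald-negative cells was already strong for some probes, although brightness cannot be compared between probes. Z00063708-1 had a net Cy3 of 45317 and 36814 in Emerald-positive and 16236 and 13978 in Emerald-negative cells, with ratio differences of 1.01 and 1.36. Z00060964-1 gave 31086 and 21651 against 10215 and 7268, with differences of 1.15 and 1.501. Z00070539-1 gave 17855 and 10684 against 7648 and 4155, with differences of 1.09 and 1.28. All 3 exceeded the 2-fold threshold by a small margin on the replicate 1 day.

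Z00070409-1 gave 19651 and 14414 against 7217 and 4214, with differences of 1.11 and 1.61. Z00061016-1 gave 11790 and 6925 against 4342 and 2609, with differences of 1.17 and 1.35. Z00060849-1 gave 11061 and 7114 against 3786 and 2447 (1.21 and 1.35), and Z00060902-1 gave 10375 and 6254 against 3731 and 2234 (1.15 and 1.34). The fifth by this measure, Z00063653-1, is described with its sequence group. Apart from Z00063653-1, the probes bright in Emerald-negative cells had differences of 1.61 or less on both days.

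The size of the difference was larger on the replicate 2 day for 158 of 196 probes, 80.6 percent, where 47.4 percent of all detected probes were. The median gap was 0.30. It exceeded 1 in 13 probes, of which 2 had the larger difference on the replicate 1 day. How many of all detected probes had such a gap was not counted.

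Among the probes with the largest gaps, Z00057246-1 differed by 2.43 and 4.19 on the replicate 1 and 2 days, with a net Cy3 of 1488 and 1586 against 231 and 97.3. Z00060967-1 differed by 1.35 and 2.95, with 793 and 649 against 346 and 109. Z00058951-1 differed by 1.27 and 2.53, with 761 and 747 against 373 and 171. The arrays as a whole were dimmer on the replicate 2 day, with median net Cy3 of 241 and 122 in Emerald-positive and of 217 and 136 in Emerald-negative cells. As a ratio, Z00057246-1 had 2.27 and 3.95 against -0.16 and -0.24, and Z00058951-1 had 1.24 and 2.29 against -0.03 and -0.25, so most of the gap lay in the Emerald-positive ratio. Z00060967-1 had 3.52 and 4.07 against 2.17 and 1.12, with the larger move in the Emerald-negative ratio.

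Z00032935-1 differed by 1.14 and 2.41, with 718 and 324 against 252 and 110. Its ratio was 1.05 and 2.37 against -0.10 and -0.04, and its Cy5 was 819 and 140 beside Emerald-positive and 622 and 218 beside Emerald-negative RNA. Z00070114-1 had the largest gap of all and went the other way, with 4.05 and 2.26. Its values are given with its group.

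The level itself, averaged over both groups, was tested between the days. With limma, 0 of 196 probes passed an adjusted p of 0.05 in either direction, and 0 percent of all probes passed. At an unadjusted p under 0.05, 28 of the 196 were higher and 45 lower on the replicate 2 day, and 7074 of all 42003 probes tested passed. Z00000892-1 had the largest rise, 1.40 ± 0.07 (SE, 4 arrays), with a limma adjusted p of 0.12. Its ratio was -1.43 and 0.06 in Emerald-positive and -2.47 and -0.94 in Emerald-negative cells, so the replicate 2 day was higher in both groups by more than the groups differed.

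Sequence links tied 51 of the 196 probes to another probe of the set, on 1 strand with 80 percent identity or more across 24 bases or longer, in 16 groups of which 9 are pairs. Such probes can read the same transcripts or near-identical copies, so they are not separate observations. The share of all probes of the array linked to each other in this way was not counted, so 51 is not read as particular to the set. Outside the set, 76 probes of the array were linked to one of the 196 on the same strand, and 60 of them were detected on all 4 arrays. Of these 60, 49 (81.7 percent) were higher in Emerald-positive cells on both days, with median differences of 0.48 and 0.69, while 24.8 percent of all 32648 detected probes outside the set were.

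The largest group held 11 probes, linked over 41 to 60 bases at 92.5 to 100 percent identity. Their net Cy3 ran from 172 to 342 and from 104 to 197 in Emerald-positive replicates 1 and 2, and from 75.5 to 144 and from 65.2 to 110 in the Emerald-negative ones. The differences had medians of 1.37 and 1.54. All 11 lay above the pool by limma in the mean of both groups, where 30 percent of detected probes did. Their limma adjusted p-values ran from 6.57e-05 to 0.000389 and their levels from 0.95 to 1.69. That mean holds the Emerald-positive samples that chose them, and linked probes are not separate observations. These were dim probes, close to the detection limit, that stood above the pool in both sorted groups. Their net Cy5 ran from 9.65 (Z00073032-1, Emerald-negative replicate 2) to 211 (Z00073040-1, Emerald-positive replicate 1). The median net Cy5 of the arrays was 255 to 501, and with so little pool signal the size of these ratios is uncertain.

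Within that group, Z00073033-1 had ratios of 3.20 and 3.34 in Emerald-positive and 1.54 and 1.34 in Emerald-negative cells. Z00073035-1 had 1.95 and 2.11 against 0.74 and 0.83, lower on every array. Z00073032-1, whose letters are the same as those of Z00073033-1, had 3.82 and 3.39 against 1.34 and 1.85, so identical letters gave differences of 2.48 and 1.66 for replicate 1 and of 1.54 and 2.00 for replicate 2. The order of these identical probes turned between the days. Net Cy5 of Z00073032-1 was 28.1 and 20.9 against 37.3 and 9.65, and of Z00073033-1 it was 65.6 and 31.9 against 47.7 and 52.9.

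The group of 4 gave larger differences. Z00026479-1 had a net Cy3 of 28283 and 27960 against 884 and 513, with ratio differences of 3.19 and 3.72. Z00070845-1 gave 12639 and 12489 against 804 and 446, with 2.79 and 3.52. Both had Cy5 at least 2-fold higher beside Emerald-positive RNA on both days.

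Of the other members of that group, Z00058452-1 gave 841 and 744 against 104 and 81.0, with differences of 2.73 and 3.30, and Z00058056-1 gave 1608 and 1310 against 471 and 266, with 1.58 and 2.44. All 4 had a larger difference on the replicate 2 day. In the mean of both groups all 4 lay above the pool by limma (adjusted p from 6.13e-05 to 0.000241), where 30 percent of detected probes did. That mean holds the Emerald-positive samples that chose them. Their Emerald-negative ratios ran from 0.44 to 1.33 for replicate 1 and from 0.35 to 0.76 for replicate 2. No probe outside the set was linked to them on either strand.

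The pair Z00010132-1 and Z00035038-1, 93.2 percent identical over 59 bases, gave differences of 3.43 and 3.70, and of 2.64 and 3.02. Net Cy3 of Z00010132-1 was 18499 and 17616 against 416 and 266, and of Z00035038-1 it was 13669 and 11472 against 923 and 659. In the pair of Z00060365-1, its partner Z00067545-1 gave 3289 and 2744 against 209 and 166, with differences of 2.66 and 3.23. Each probe of both pairs was above the pool in both sorted groups.

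Z00060442-1, among the 12 leading probes, shared 24 bases at full identity with Z00061010-1. The latter had a net Cy3 of 19411 and 14543 against 782 and 374, with differences of 4.20 and 5.09, and its ratio in Emerald-negative cells was 0.00058 and -0.38. In both probes the Emerald-negative ratios were near the pool, between -0.38 and 0.18.

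The group of 3 led by Z00063589-1 had larger differences for replicate 1 than for replicate 2. Z00063589-1 had a net Cy3 of 65133 on Emerald-positive replicate 1, which was saturated, and 11284 on replicate 2, against 2226 and 1828 in Emerald-negative cells. Z00063653-1 had 65135, also saturated, and 19796, against 4150 and 3803. Z00070114-1 had 30285 and 2842 against 475 and 379. The replicate 1 Emerald-positive sample was thus far above the replicate 2 one for all 3, while the Emerald-negative samples were close to each other.

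Ratio differences on the replicate 1 and 2 days were 3.03 and 1.88 for Z00063589-1, 2.52 and 1.88 for Z00063653-1, and 4.05 and 2.26 for Z00070114-1. The first value of each saturated probe is a lower bound for the Cy3 rise. None of the 3 passed the limma test against the pool in the mean of both groups (adjusted p from 0.116 to 0.337). Their Emerald-positive arrays lay above the pool and their Emerald-negative arrays below it.

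On the opposite strand, 18 probes of the array were linked to that group, and none was in the set. They were examined after their values had been seen. Their ratio differed by 1.04 to 2.78 for replicate 1 (median 2.49) and by 0.42 to 0.99 for replicate 2 (median 0.73), and all 18 passed the 2-fold threshold for replicate 1. Cy5 was saturated on the Emerald-negative array in 4 of them for replicate 1 and in 3 for replicate 2, so the differences of these probes are lower bounds. The 15 probes not saturated there for replicate 2 differed by 0.54 to 0.99, under the threshold. Their net Cy5 was lower beside Emerald-positive RNA on both days in 18 of 18, with medians of 11920 against 50840 and of 25070 against 50980. Net Cy3 was higher on the replicate 1 day in all 18, with medians of 3124 and 2325, and on the replicate 2 day it was lower in 14, with medians of 4513 and 6388. In the 3 probes of the set Cy5 was higher beside Emerald-positive RNA on both days. It was 26121 and 11607 against 9882 and 6982 for Z00063589-1, 39632 and 21314 against 19128 and 14927 for Z00063653-1, and 9134 and 3018 against 2990 and 1917 for Z00070114-1. Cy5 thus differed in opposite directions on the opposite strands, and the cause was not tested.

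Many of the other groups sat near the threshold and showed a common day pattern. The group of 5 led by Z00060888-1 differed by 1.03 to 1.15 for replicate 1 and 1.06 to 1.28 for replicate 2, and a group of 4 led by Z00032641-1 by 1.02 to 1.10 and 1.11 to 1.22. The 3 probes around Z00060883-1 differed by 1.01 to 1.21 and 1.23 to 1.39. In each of these groups every probe had a lower level on the replicate 2 day. Over all linked probes 43 of 51 had a lower level on that day, with a median of -0.28. Of the 145 unlinked ones 48 did, with a median of 0.12, and over all 42003 probes tested the median was -0.016. Linked probes share sequence, so the 43 are not separate observations, and no probe passed the test between days.

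The group of 3 with Z00070409-1 differed by 1.11 to 1.35 and by 1.61 to 1.80. Its members Z00063723-1 and Z00065471-1 were above the pool with it in the normalised mean of both groups. Of the remaining pairs, Z00060863-1 and Z00061016-1 shared 31 bases and were above the pool by 2.14 and 2.12 in the normalised mean. Z00060902-1 and Z00063711-1 were above it by 1.51 and 1.54, and Z00060941-1 and Z00061011-1 by 1.24 and 1.12. These pairs, unlike the groups around Z00060888-1 and Z00032641-1, stood above the pool in both sorted groups. Z00060967-1 and Z00072933-1 were above it by 2.33 and 0.97. Z00059047-1 and Z00060974-1 differed by 1.09 and 1.07 on the replicate 1 day, and Z00060904-1 and Z00060965-1 by 1.03 and 1.08. In these last 2 pairs Emerald-positive arrays lay above the pool and Emerald-negative arrays below it.

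The word AGCAGCAGCA stood in 10 of the 196 probes and in 12 of all 42006, or 5.1 and 0.0286 percent. It was picked after all 10-base words had been counted, as the word found in the most probes not linked by sequence to each other. No test applies to a word picked so. It overlaps the word GCAGCAGCAG, which 8 of the set and 9 of all probes held. Its reverse complement, TGCTGCTGCT, stood in 18 probes of the array and in 0 of the set.

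None of the 10 holders in the set was linked by sequence to another, and the word began between position 4 and position 35 of the probe. Z00033463-1 had a net Cy3 of 6205 and 7091 against 215 and 130, with ratio differences of 3.96 and 4.56. Z00025315-1 gave 21137 and 17478 against 635 and 441, with 3.64 and 3.96. Z00022546-1 gave 9791 and 7634 against 628 and 552, with 2.95 and 3.02. In these 3, in Z00070806-1, in Z00024834-1 and in Z00055635-1 the groups were about 2.95 or more apart on the log2 scale on both days.

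Z00024834-1 gave 2553 and 2173 against 273 and 184, with differences of 3.03 and 3.38. Z00055635-1 gave 1735 and 1370 against 177 and 121, with 2.95 and 3.48. Z00054286-1 (497 and 591 against 76.0 and 70.1) and Z00056563-1 (363 and 288 against 76.9 and 71.4) were dimmer, with Emerald-negative signals near the negative-control level. Z00064868-1 differed by 1.35 and 1.97, and Z00072872-1 by 1.13 and 1.01. By limma the 10 holders were all above the pool in the mean of both groups. So were 150 of the 196 probes and 30 percent of detected probes. Levels of the holders ran from 0.25 to 1.59 and their limma adjusted p-values from 4.34e-05 to 0.0443. That mean holds the Emerald-positive samples that chose them. On both Emerald-negative arrays 9 of the 10 lay below the pool, and Z00022546-1 lay above it (0.11 and 0.12). Of the 196 probes, 92 lay below it on the Emerald-negative array of replicate 1 and 91 on that of replicate 2. The share over all detected probes was not counted.

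The 2 holders outside the set were detected on all 4 arrays and were also higher in Emerald-positive cells. Z00003891-1 differed by 0.41 and 0.43, and Z00072723-1 by 0.94 and 1.10. A shared word is a description of these letters and says nothing of why the probes moved together.

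The promoter windows of RefSeq (GRCm38.p6, 300 bases around each start, 32851 windows of 27025 genes) gave the only link from these probes to gene symbols. At least 50 bases at 80 percent identity matched a window for 25 of the 196 probes, 12.8 percent, against 1.88 percent of all probes, and at least 2 windows for 14, 7.14 percent, against 0.683 percent. Linked probes can match the same windows, so these are not counts of separate sequences. Every probe of the group of 5 led by Z00060888-1 and of the 3 around Z00060883-1 matched the window of A230098N10Rik. A window match names a stretch of genome next to a start, not the transcript that the probe reads, so no probe was given a gene from it.

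The 2 best matches were exact over all 60 bases. Z00060294-1 matched the plus strand of the Gm21936 window at chr12:87795250-87795549, with net Cy3 of 11201 and 12332 against 309 and 125 and ratio differences of 4.05 and 5.10. Z00056563-1 matched the opposite strand of the 4930477N07Rik window at chr10:119319984-119320283, with differences of 1.85 and 2.17. The leading probe Z00058166-1 matched the Tbc1d23 window at chr16:57201422-57201721 at 91.7 percent. Z00061010-1 matched the Pfdn5 window at 98.0 percent over 51 bases on the opposite strand.

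Z00032636-1, the probe whose ratio rose through Cy5 alone, matched the window of Pou5f1, which encodes the pluripotency factor OCT4, at 93.3 percent, and thus not exactly. Z00060978-1 matched 14 windows, among them those of Fut8 and Gm31630, at 83.3 to 95 percent and always on the opposite strand. Its ratio was 3.11 and 2.56 in Emerald-positive and 1.88 and 1.51 in Emerald-negative cells. Z00060909-1 matched 6 windows and Z00070167-1 and Z00070366-1 matched 4 each, so the letters of these probes recur in the genome. No probe of the set matched a miRNA hairpin, 0 of 196.

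In base composition the set had a median of 40.8 percent G and C, with a range from 26.7 to 65 percent, where all probes had a median of 43.3 percent. 1 probe of the set had a spot marked as an outlier on any array. Over the whole array, the median net Cy3 signal was 122 to 241 per array, the negative-control level 33.8 to 65.2, and between 79.4 and 93.6 percent of probes lay above it. The number of arrays, 2 per group, limits the precision of every comparison given here.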

How the data were processed

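RNA from 2 Emerald-positive and 2 Emerald-negative samples was measured on 4 Agilent arrays of 42006 probes. The deposited scanner tables hold spot intensity for each dye, background-subtracted and dye-normalised processed intensities as the file headers describe. Per the file headers they also give log10 ratios, Cy5 divided by Cy3. The value table that the authors deposited holds log10 values. How it was made is not given in the sources used here. Its columns had medians from 2.948 to 2.957, and its centring stays unknown.

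Members were selected on processed ratios, log2 of Cy3 over Cy5 computed from the deposited intensities, with a difference of at least 1 on both days and net Cy3 above the mean plus 2.6 SD of the 314 negative-control spots of each array. Members, lists and the rule for named probes were chosen with earlier results of these data known. Spots of a probe were averaged. For tests, mean signals were corrected with normexp (offset 50) and loess-normalised, control and outlier spots (403 values) having weight 0, and fitted with limma 3.58.1 in R 4.3.3 over all probes, Benjamini-Hochberg adjusted at 0.05. The scripts were tested on simulated data. Sequences were compared with BLAST+ 2.17.0+ (word size 11).

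Named are the 12 members with the largest smaller-of-2-days difference, the 8 brightest in Emerald-negative cells, the 6 highest and 6 lowest against the pool, the 6 with the largest gap between days, the 5 on each side of the threshold, and members linked by sequence. Same-numbered samples carry the same day in their descriptions, and deviations of same-numbered samples correlated across probes (r = 0.475), so replicate numbers pair the samples. Naming probes through proteins was not done, because no protein table was used here. Alternatives were other background corrections, normalisations, filters, thresholds and left-out arrays.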

Additional observations from a re-analysis of the deposited data

How the results depend on the processing

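The count of members called higher in Emerald-positive cells, 69, was 164 with the replicate block, 39 without background correction, 45 in the authors' deposited table, and 138 unadjusted and 0 adjusted by the unmoderated one-way test. It was 11 to 62 when an array was left out, which makes the remaining sample of that group stand for its spread, and 46 to 74 under the other settings. The median difference, 1.44, was 1.06 without background correction, 1.32 to 1.63 under the other settings, and 1.41 to 1.54 when an array was left out. The rule kept 324 probes at a log2 difference of 0.8 and 127 at 1.2, and 167 to 212 under its other settings, with 165 of the 167 shared under the normexp and loess ratio. Members above the pool numbered 142 to 158 under the settings that kept every array, and 0 differed between days under every setting run. Of 51 linked members, 36 were linked at 40 bases and 90 percent identity. The 85 named members kept their direction in all 1445 values under alternatives, while some of these values lost and others gained a call. The rule chose the members for that direction on the same arrays, so this was nearly fixed beforehand and supports nothing. Not run were the level against the pool from the sample channel alone or the authors' table, the day comparison with an array left out (no residual degrees of freedom), and protein matches. The cause of these changes was not tested. The word, the Cy5 counts, the promoter windows and the opposite-strand probes were chosen after seeing the data.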

Other observations

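The detected probe outside the set whose Cy5 signal was at least 2-fold higher beside Emerald-positive RNA on both days was Z00070837-1. Its net Cy5 was 267 and 169 against 96.2 and 51.1, its net Cy3 was 1936 and 1640 against 480 and 448, and its ratio differed by 0.68 and 0.54, so both channels rose and the ratio stayed under the threshold. It was singled out after its values were seen.

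Links also reached the raised probes that were not detected on all 4 arrays: 6 of those 59 shared sequence with 14 probes of the set.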
